A study of Homo sapiens with 4 samples.

Results

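The globin genes of the alpha cluster (HBZ, HBM, HBA2, HBA1 and HBQ1, chromosome 16) and of the beta cluster (HBE1, HBG2, HBG1 and HBB, chromosome 11) were examined together with AHSP, the alpha-hemoglobin stabilizing protein, in K562 cells expressing RUNX1::ERG. These 10 genes were taken by symbol, through the NCBI gene number, from the 25702 genes counted. K562 is an established cell line derived from human chronic myeloid leukemia. Cells of both groups were transfected with the LeGO-iG2 plasmid, which carries green fluorescent protein, and in the RUNX1::ERG group it also expressed the fusion, while the control group received the empty vector. Both groups were otherwise labelled as untreated, and poly(A)-enriched RNA of 2 replicates per group was sequenced. Expression was transient and the RNA came from cultures in bulk, and whether transfected cells were sorted before RNA extraction was not given in the sources used here. The paper states that its protocol transfected most K562 cells, without a value for these libraries. The question asked here is how the fusion, which keeps the DNA-binding domains of RUNX1 and ERG, changed the mRNA of the hemoglobin chains.

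Hemoglobin is a tetramer of alpha-type and beta-type globin chains, each holding heme. During development the genes of each cluster are switched in turn, from zeta to alpha in the alpha cluster, and from epsilon through gamma to delta and beta in the beta cluster. K562 cells are known for making embryonic and fetal hemoglobins while the adult beta-globin gene is nearly silent. AHSP binds free alpha chains and keeps them from precipitating, and like the globins it is a late erythroid gene.

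Libraries held between 59695387 and 82352144 counts. The labels were checked on ERG, which had 80443 and 27218 counts with RUNX1::ERG and 4 in both empty vector libraries. Of the K562 markers, GATA1, TFRC, EPOR, LMO2, BCR and ABL1 were expressed in all 4 libraries and CDKN2A, which K562 cells lack, had no count, which allows up to 3 counts or 0.0503 CPM in the smallest library. PTPRC, listed as low or absent, was at 143 to 196 normalized CPM, the unit used below, in which counts are scaled to a common library size. Megakaryocyte markers moved with the groups: their summed level was 114 and 115 normalized CPM with the empty vector and 582 and 517 with RUNX1::ERG. By the test used here 9 of the 13 tested were called higher (69.2%), beside 3.64% of all tested genes. The other 7 of the 20 listed had at most 18 counts in a library, with GP1BB at 0 in all 4. Of the 9, PF4, PPBP and VWF had at most 8 counts in an empty vector library. They passed the filter on low counts only through the RUNX1::ERG libraries, so the called share is a description and no support. Among the called markers the log2 fold change was 4.64 for ITGB3 and 4.22 for ITGA2B. Their part in the globin results was not tested. Myelomonocytic markers summed to 67.1 and 72.7 against 128 and 111 normalized CPM, most of it CD68 at 54.7 and 60.2 against 102 and 89.1. Among 10 tested, CD14, LYZ and CD68 were called higher. The list did not move as a whole: 5 were fitted above and 5 below the empty vector (median -0.006 on the log2 scale). Lymphoid markers summed to 35.8 and 36.6 against 24.8 and 26.2, most of it CD3D at 32.5 and 34.7 against 20.5 and 23.6. CD3D was not called by the same test. GNLY was called higher among 5 tested (20%, beside the same 3.64%), and MS4A1 had 0 counts. With 6 and 0 against 106 and 66 counts, GNLY too passed the filter only through the RUNX1::ERG libraries. The part of these markers was likewise not tested.

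The alpha-globin copies and the gamma-globin copies are near-identical, so each pair was also read as a sum. In the reference annotation the coding sequences of HBA1 and HBA2 had 0 differences, and 77.3% of all stretches of 150 bases, the read length, in the HBA1 mRNA were also found in HBA2. HBG1 and HBG2 differed at 2 of 441 coding bases, and 37.2% of such stretches were shared. For HBB and its close relative HBD no such stretch was shared. The stretches where the coding sequences of the reference gamma-globin copies differ are shown here, with the differing base in capitals and 41 bases of the coding strand of GRCh37. Whether K562 cells carry these bases was not checked. Positions in the substitutions count from the A of the start codon, with the base of HBG1 first. The earlier site, C227T, lies in HBG1 at chr11:5270666-5270706 and in HBG2 at chr11:5275590-5275630, both on the minus strand.
HBG1: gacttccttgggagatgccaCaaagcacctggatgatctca
HBG2: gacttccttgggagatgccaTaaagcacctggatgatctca
The later site, C410G, separates the alanine form of the gamma chain (HBG1) from the glycine form (HBG2) and lies at chr11:5269603-5269643 and chr11:5274521-5274561.
HBG1: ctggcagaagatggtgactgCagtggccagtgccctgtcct
HBG2: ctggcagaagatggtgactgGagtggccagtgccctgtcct
A read that covers neither site nor a difference outside the coding sequence cannot be placed on its own, though its mate may cover one. How such reads were counted was not given in the sources used here, so the split within each pair is uncertain. Annotated genes on the opposite strand overlap HBA1 and HBA2, and long isoforms or readthrough genes on the same strand overlap HBZ, HBE1, HBG1 and HBG2. Whether strand was used in counting was not given either.

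HBB and AHSP rose with RUNX1::ERG, HBB by 4.64-fold from a very low level and AHSP by 1.94-fold. No other gene among the 10 passed an adjusted p of 0.05. Embryonic zeta-globin (HBZ) was at 0.662 of its empty vector level and just missed the threshold, while epsilon-globin (HBE1) and the gamma-globins were fitted 1.12 to 1.21-fold higher without passing it. Of the 10 genes, 2 were called, against 4.79% of the 15394 genes tested, and both were higher, against 3.64% called higher. The median log2 fold change of the 10 was 0.27, beside 0.00 over all tested genes. In 6 genes both RUNX1::ERG libraries lay above both empty vector libraries and in 1, HBZ, below them, against 25.1% and 22.1% of all tested genes, and 47.2% for either direction. All 10 passed the filter on low counts.

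**Figure D1:**
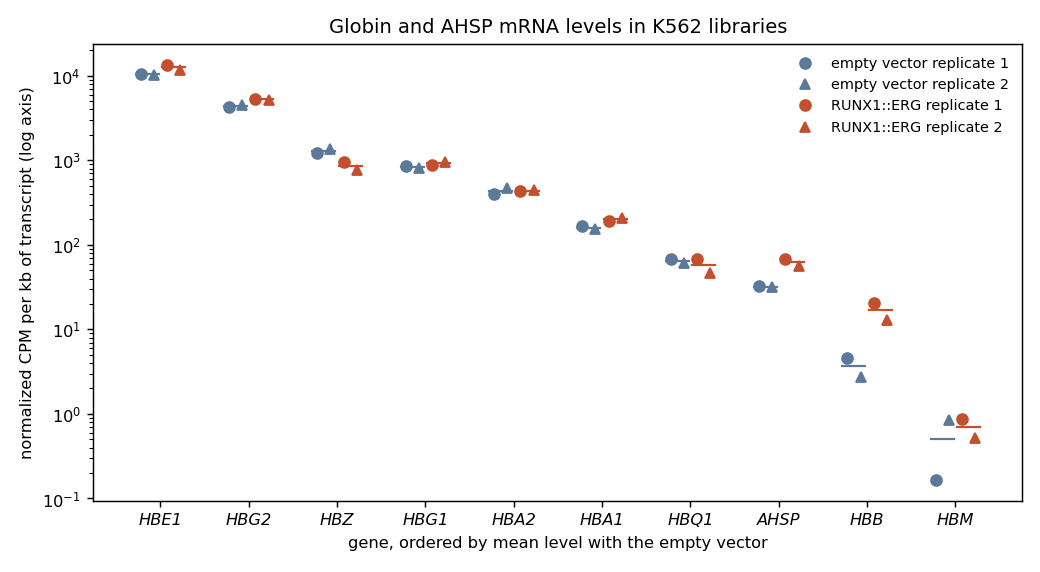
Normalized CPM per kb of transcript (log axis) of the 10 genes in each library, with circles for replicate 1, triangles for replicate 2 and horizontal lines for group means. The order from HBE1 at 10442 down to HBM at 0.506 with the empty vector spans over 4 powers of 10, and only HBB and AHSP show a wide step between the groups.

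Levels were compared between genes per kb of the annotated transcript. With the empty vector HBE1 led at 10442 ± 253 (SD, n = 2) normalized CPM per kb, followed by HBG2 at 4374 ± 147, HBZ at 1294 ± 119, HBG1 at 829 ± 24.5, HBA2 at 438 ± 49 and HBA1 at 160 ± 8.3. HBQ1, encoding theta-globin, was at 64.5 ± 5.73, AHSP at 32.1 ± 0.781, HBB at 3.64 ± 1.32 and HBM, encoding mu-globin, at 0.506 ± 0.482. Neighbours in this order were separated by more than their SD. With RUNX1::ERG the order differed at 2 places. HBZ, at 857 ± 122, came after HBG1, at 925 ± 47.6, a gap smaller than the SD of HBZ, and AHSP, at 62.3 ± 8.1, stood beside HBQ1, at 57.3 ± 15.6, which do not differ beyond their spread. The globins together took 1.1% and 1.06% of all counts in empty vector replicates 1 and 2 and 1.35% and 1.2% in the RUNX1::ERG replicates.

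HBB (NCBI gene 3043, GRCh37 chromosome 11, 5246694 to 5248301, minus strand, 3 exons) encodes the adult beta chain. It had 173 and 120 counts with the empty vector and 1096 and 587 with RUNX1::ERG, or 2.87, 1.7, 13 and 8.17 normalized CPM. The groups did not overlap, and the lower RUNX1::ERG library was well above the higher empty vector library. The log2 fold change was 2.21 (standard error 0.34, 95% interval 1.47 to 2.96), with an adjusted p of 0.0044 in the quasi-likelihood test of edgeR. HBB was the scarcest beta-type globin in every library. Per 10000 HBE1 counts there were 4.34 and 2.66 HBB counts with the empty vector and 15.5 and 11.2 with RUNX1::ERG, with no overlap. Beta-type counts, here and below, are those of HBE1, HBG2, HBG1 and HBB, without HBD. The HBB share of them was 0.0299% and 0.0179% with the empty vector and 0.108% and 0.0746% with RUNX1::ERG. The widest 95% Wilson interval of these shares was 0.0128 percentage points. It covers counting error only, and is too narrow even for that if both mates of a pair were counted.

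The neighbours of HBB in the cluster differed in direction. HBD, encoding the delta chain of minor adult hemoglobin, was at 16.4 and 21.2 against 32.6 and 29.7 normalized CPM, the empty vector given first here and below. Its groups did not overlap, but its log2 fold change of 0.72 (95% interval 0.29 to 1.16) had an adjusted p of 0.065 in edgeR. HBD passed with the DESeq2 Wald test (adjusted p = 0.017) but not with limma (0.065). In edgeR it also passed without the filter (0.016) and with a block for replicate number (0.024). HBD passed under only 4 of 13 other settings, and its log2 fold change ran from 0.55 to 0.92 with each library left out. HBBP1, the transcribed beta-type pseudogene, fell from 78.2 and 80.3 to 46.4 and 44.1 normalized CPM. The value of -0.81 on the log2 scale (standard error 0.16) had an adjusted p of 0.016 in edgeR, a call that was lost without RUNX1::ERG replicate 1, at an adjusted p of 0.066. HBB counts per 100 HBD counts were 17.5 and 8.02 with the empty vector and 39.9 and 27.5 with RUNX1::ERG. Of the globins used outside red cells, MB, CYGB and NGB did not pass the filter and reached no more than 12 counts.

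AHSP (NCBI gene 51327, chromosome 16, 31539221 to 31540124, plus strand, 3 exons) lies on chromosome 16 away from the alpha cluster. It had 960 and 1086 counts with the empty vector and 2798 and 1984 with RUNX1::ERG, or 15.9, 15.4, 33.2 and 27.6 normalized CPM. The empty vector replicates were close to each other and both RUNX1::ERG replicates lay far above them. The log2 fold change was 0.96 (standard error 0.19, 95% interval 0.53 to 1.38, adjusted p = 0.018 in edgeR). The call was lost without RUNX1::ERG replicate 1, where the log2 fold change was 0.82 and calls over all genes also fell. In bulk samples a change in the number of cells that express a gene and a change in RNA per cell cannot be told apart, which holds for HBB, AHSP and every gene below.

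**Figure D2:**
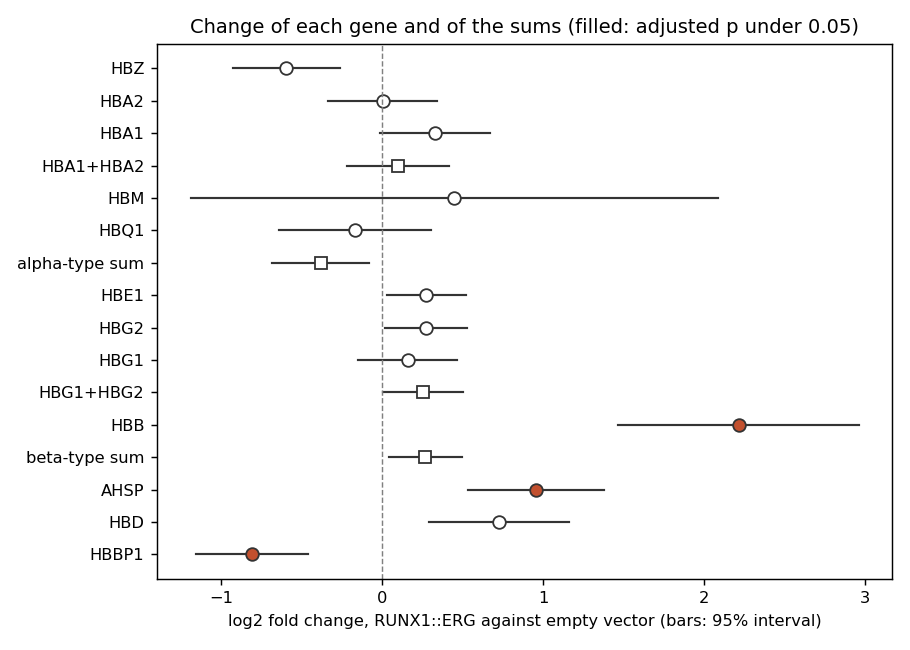
Log2 fold change of RUNX1::ERG against the empty vector from edgeR, with 95% intervals, for the 10 genes, HBD and HBBP1 (circles) and for the sums of copies and clusters (squares). Filled symbols mark an adjusted p under 0.05: HBB at 2.21, AHSP at 0.96 and HBBP1 at -0.81.

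In the alpha cluster the embryonic gene was lower relative to the adult genes with RUNX1::ERG. HBZ (NCBI gene 3050, 202643 to 204502), the embryonic alpha-type chain, had 58181 and 77571 counts with the empty vector and 63471 and 44214 with RUNX1::ERG. In normalized CPM it was at 966 and 1100 against 753 and 615, with no overlap. Its log2 fold change was -0.59 (standard error 0.15, 95% interval -0.93 to -0.26), and the adjusted p of 0.05003 in edgeR lay just outside the threshold. It passed under 6 of 13 other settings, among them the DESeq2 Wald test (adjusted p = 0.019), and was farthest from the threshold without RUNX1::ERG replicate 2 (adjusted p = 0.35, log2 fold change -0.47).

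HBA2 (NCBI gene 3040, 222875 to 223709), the more abundant alpha-globin copy, was at 232 and 272 against 250 and 256 normalized CPM. HBA1 (NCBI gene 3039, 226679 to 227521) was at 95.8 and 89 against 111 and 121. HBA2 overlapped between the groups and HBA1 did not, but neither passed the threshold, with adjusted p-values of 0.997 and 0.298 in edgeR. The sum of both copies, which avoids the uncertain split, was at 328, 361, 361 and 377 normalized CPM. Its log2 fold change was 0.10 with a 95% interval from -0.22 to 0.42, that is from 0.858-fold to 1.33-fold.

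Within the cluster, HBZ made up 72.6% and 73.6% of the alpha-type counts with the empty vector and 65.5% and 60.5% with RUNX1::ERG, and HBA1 and HBA2 together 24.7% and 24.2% against 31.4% and 37.1%. The widest Wilson interval for HBZ was 0.709 percentage points, with the same limit as for HBB. Per kb of transcript the means for HBZ were 66.1% and 55%. There were 2.94 and 3.04 HBZ counts per alpha-globin count with the empty vector and 2.09 and 1.63 with RUNX1::ERG. The groups did not overlap in any of these ratios. They are not separate results, because HBZ, HBA1 and HBA2 make up most of the alpha-type counts. With 2 libraries a group the smallest p that an exact permutation test (two-sided) allows is 0.333, which was the value for each. These shares hold for the counts as deposited, with reads that match both alpha-globin copies treated in a way that is not known.

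HBQ1 (NCBI gene 3049, 230458 to 231178), whose protein is not known as part of a working hemoglobin, was at 36.2 and 31.9 against 36.1 and 24.4 normalized CPM. HBM (NCBI gene 3042, 215977 to 216763), a further minor alpha-type gene, had 5, 30, 37 and 19 counts. Both overlapped between the groups. The 95% intervals of their log2 fold changes, -0.64 to 0.30 and -1.19 to 2.09, leave room for a sizeable change in HBM, which was not detectable at this depth.

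Of the 11 neighbours listed on the 2 sides of the alpha cluster, among them NPRL3, whose introns hold the main alpha-globin enhancers, 10 were tested. Of these, 0 were called by edgeR, DESeq2 or limma, and 0 had an unadjusted p under 0.05. Of all 15394 tested genes 4.79% were called by edgeR and 2767 had an unadjusted p under 0.05, so 0 calls among 10 genes says little. The median log2 fold change of the 10 neighbours was 0.01, and NPRL3 was at 125 and 101 against 117 and 109 normalized CPM.

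The shares of the abundant genes within the beta cluster overlapped between the groups. HBE1 (NCBI gene 3046, 5289575 to 5291175), the embryonic beta-type chain and the most abundant globin mRNA of these cells, had 398543 and 450893 counts with the empty vector and 709163 and 526057 with RUNX1::ERG. It was at 6617 and 6394 normalized CPM against 8412 and 7318, with no overlap, and its log2 fold change of 0.27 (95% interval 0.03 to 0.52) had an adjusted p of 0.22 in edgeR.

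HBG2 (NCBI gene 3048, 5274418 to 5276011) was at 2503 and 2624 normalized CPM against 3123 and 3064, and HBG1 (NCBI gene 3047, 5269499 to 5271087) at 497 and 477 against 523 and 563. Both encode fetal gamma chains, and in neither did the groups overlap. Summed, they were at 2999.5 and 3101 normalized CPM in the empty vector libraries and at 3646 and 3627 with RUNX1::ERG, a log2 fold change of 0.25 (95% interval 0.01 to 0.50, adjusted p = 0.26 in edgeR). HBG2 took 83.4% to 85.6% of the gamma-globin counts in all 4 libraries, with overlapping groups.

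HBE1 made up 68.8% and 67.3% of the beta-type counts with the empty vector and 69.7% and 66.8% with RUNX1::ERG, and the gamma-globins 31.2% and 32.7% against 30.2% and 33.1%. Both measures overlapped between the groups (exact permutation p = 1 for each). There were 2.21 and 2.06 HBE1 counts per gamma-globin count with the empty vector and 2.31 and 2.02 with RUNX1::ERG.

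**Figure D3:**
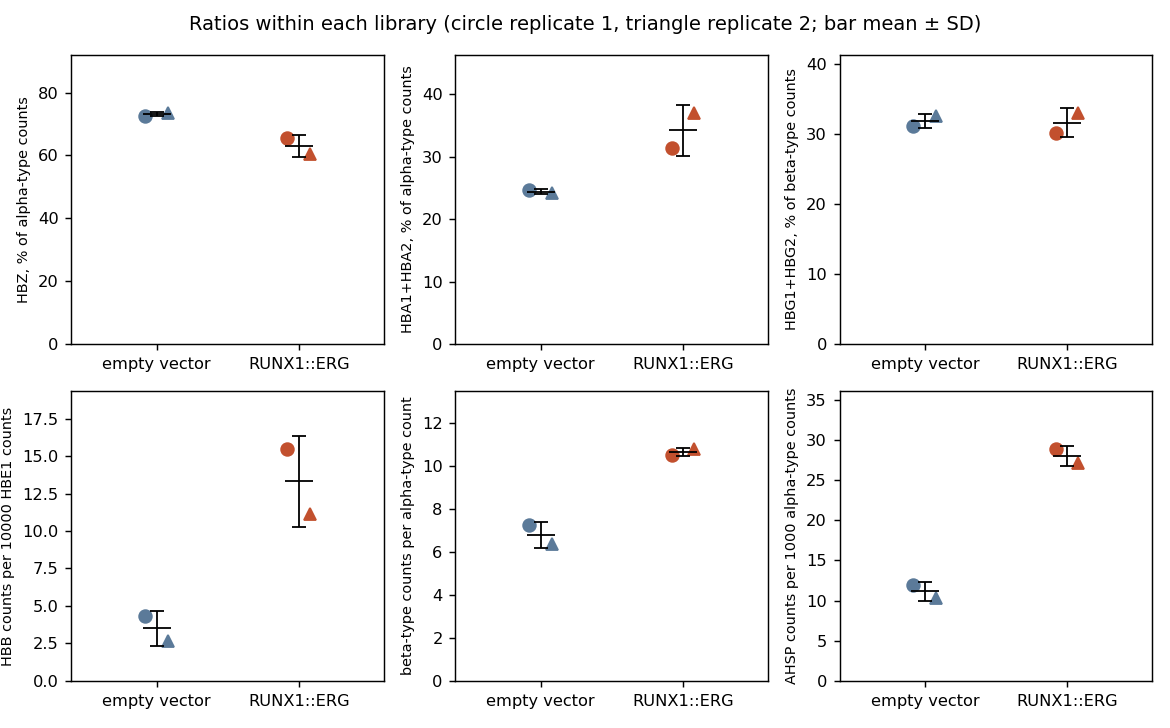
Ratios of counts within each library for the empty vector (blue) and RUNX1::ERG (red), with circles for replicate 1, triangles for replicate 2 and black marks for mean ± SD; each axis starts at 0. HBZ and alpha-globin shares, HBB per HBE1, beta-type per alpha-type and AHSP per alpha-type separate the groups, while the gamma-globin share lies between 30.2% and 33.1% in all 4 libraries.

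The totals of the clusters moved apart. Alpha-type mRNA summed to 1330 and 1494 normalized CPM with the empty vector and to 1150 and 1017 with RUNX1::ERG, a log2 fold change of -0.38 (95% interval -0.68 to -0.08, adjusted p = 0.16 in edgeR). Beta-type mRNA summed to 9619 and 9497 against 12071 and 10953, a log2 fold change of 0.27 (95% interval 0.04 to 0.49, adjusted p = 0.19 in edgeR). In neither did the groups overlap, as in 47.2% of all tested genes, and neither sum passed the threshold on its own. Within the alpha-type sum HBZ was lower, at 966 and 1100 against 753 and 615 normalized CPM. HBA1 and HBA2 together were not, at 328 and 361 against 361 and 377.

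Their ratio does not depend on the scaling of libraries. There were 7.23 and 6.36 beta-type counts per alpha-type count with the empty vector and 10.5 and 10.8 with RUNX1::ERG, and the means per kb of transcript were 8.02 and 12.1. The log2 ratio of alpha-type to beta-type counts was -2.76 ± 0.13 with the empty vector and -3.41 ± 0.03 with RUNX1::ERG (SD, n = 2), a difference of -0.65 at the smallest exact permutation p the design allows, 0.333. AHSP, the partner of the alpha chain, was higher relative to them. There were 12 and 10.3 AHSP counts per 1000 alpha-type counts with the empty vector and 28.9 and 27.1 with RUNX1::ERG. Counted against HBA1 and HBA2 alone there were 48.6 and 42.6 against 92 and 73.2 per 1000.

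The amount of fusion transcript differed between the RUNX1::ERG replicates, with ERG 2.52-fold and RUNX1 1.96-fold higher in replicate 1. HBM, from 37 and 19 counts, was 1.66-fold, HBB 1.59-fold, HBQ1 1.48-fold, HBZ 1.22-fold, AHSP 1.2-fold and HBE1 1.15-fold higher in the same replicate, and HBG1, HBG2, HBA1 and HBA2 were at 0.93, 1.02, 0.916 and 0.976 of replicate 2. With 2 replicates no relation can be tested.

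Among 29 listed regulators of the globin genes, 28 were tested, and 1 was called higher and 1 lower by edgeR, a share of 7.14% beside the 4.79% given above. TAL1, part of the DNA-binding complex that drives erythroid genes, rose from 197 in each empty vector library to 323 and 308 normalized CPM (log2 fold change 0.68, adjusted p = 0.025). MYB, known to hold back erythroid maturation and to keep gamma-globin low, fell from 205 and 202 to 95.4 and 123 (log2 fold change -0.90, adjusted p = 0.013). Both calls were lost without RUNX1::ERG replicate 1, with adjusted p-values of 0.14 and 0.12, and that of TAL1 also without replicate 2 (0.054).

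The main activators of the globin genes were not called. GATA1 was at 270 and 263 against 302 and 256 normalized CPM. KLF1, the factor known for switching on HBB, was at 187 and 248 against 210 and 190, overlapping between the groups. NFE2, which binds the distant enhancers of the beta cluster, was at 305 and 322 against 299 and 287. Of the fetal globin repressors, ZBTB7A was at 59 and 71.9 against 101 and 77.5 (adjusted p = 0.23 in edgeR) and BCL11A had a count of 0 in all 4 libraries. LIN28B, a fetal-stage RNA-binding protein, was at 139 and 161 against 113 and 140.

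All 13 heme synthesis genes were tested, of which 2 were called lower and 0 higher by edgeR, DESeq2 and limma alike. The called share was 15.4% by edgeR, beside 4.79% of all tested genes called and 1.15% called lower. By edgeR 6 had an unadjusted p under 0.05, beside 2767 of all 15394 tested genes. Of the 6, 2 were higher and the others lower, and the median log2 fold change of the list was -0.02. SLC25A37, the mitochondrial iron importer, fell from 205 and 198 to 136 and 131 normalized CPM (log2 fold change -0.59, adjusted p = 0.048 in edgeR), a call that was lost under 6 of 13 other settings. ALAS2, the erythroid first enzyme, was at 73.8 and 98.2 against 119 and 115 without a call.

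Of 24 other erythroid genes, all tested, 3 were called higher and 1 lower by edgeR (16.7%), with a median log2 fold change of 0.14. Of all tested genes 4.79% were called, 3.64% higher and 1.15% lower. RHCE and RHD, which carry the Rh blood group antigens and are near-identical to each other, rose by log2 fold changes of 1.34 and 0.71, and EPOR, the erythropoietin receptor, by 0.87. CA1, the carbonic anhydrase of mature red cells, fell by 1.58 on the log2 scale. EPOR lost its call without RUNX1::ERG replicate 1 (adjusted p = 0.25), and so did RHD (0.14), which also missed it without RUNX1::ERG replicate 2 (0.065) and empty vector replicate 1 (0.053). Of the genes that sense or clear unbalanced globin and heme, among them the heme-regulated kinase EIF2AK1, 5 were tested. They gave 0 calls by edgeR, DESeq2 or limma, and 0 had an unadjusted p under 0.05. With 4.79% of all tested genes called by edgeR, 0 calls among 5 says little. EIF2AK1 was at 293 and 274 against 277 and 304 normalized CPM.

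The genes nearest in profile over the 4 libraries were taken from 2472 genes of at least 100 CPM by the root mean square distance of centred log2 values. For AHSP they were BHLHE40, SEPTIN5 and RHOC, at distances of 0.0482, 0.0552 and 0.0585. For the alpha-type sum they were AGAP3, KAT2A and TONSL, at 0.0215, 0.0239 and 0.0269, and for the beta-type sum HERC2P2, CAPN1 and SERF2, at 0.0155, 0.0193 and 0.021. With 4 libraries that share their depth and scaling, such closeness is a description.

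**Figure D4:**
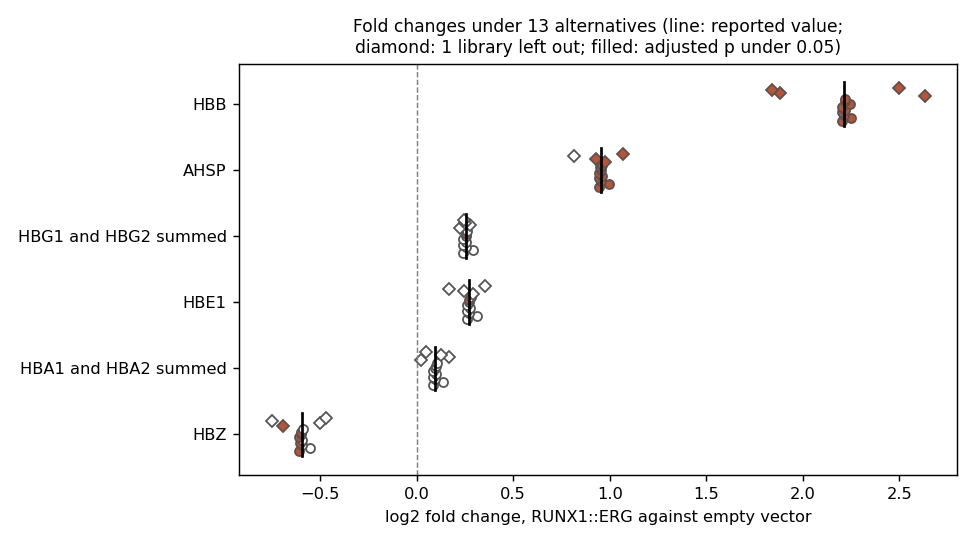
Log2 fold changes under 13 alternative settings for 6 results, with black lines at the reported values, diamonds where 1 library was left out and filled symbols at an adjusted p under 0.05. HBB is filled throughout, between 1.84 and 2.63, AHSP is filled in 12 of 13 and HBZ in 6 of 13.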

How the data were processed

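For each library the authors deposited raw gene-level read counts, without normalization. The submitters' processing notes name HISAT2 2.2.1, featureCounts 2.0.1 and hg19. The annotation and the settings for strand and for reads that match several places were not given in the sources used here. Between 66.7% and 68.9% of counts from 1 to 10 were even, as when both mates of a pair are counted, so independent fragments are fewer than counts. Symbols came from a RefSeq table of GRCh38.p14, which matched 92.2% of genes, and positions, transcripts and lengths from GENCODE v44 on GRCh37.

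Groups were taken from the titles. Counts were compared over the whole table in R 4.3.3 with edgeR 4.0.16 (TMM scaling, filter on low counts, quasi-likelihood test, Benjamini-Hochberg adjustment over all tested genes, threshold 0.05). Standard errors were the log2 fold change divided by the root of F. Copies and clusters were summed in refitted tables. Replicate spread exceeded counting noise by a chi-square per degree of freedom of 75.2 and 57.5. The study calls the libraries biological replicates, with no more said of separate cultures, so p-values measure the spread between these libraries only. The test was also run on simulated independent counts of a fixed spread, which differ from these libraries, so that run does not support these p-values. DESeq2 1.42.0, limma 3.58.1 and other settings were alternatives.

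Named genes followed a rule: the 10 genes, their sums, other globins, up to 6 called genes per list by size, 8 fixed regulators, and the 3 nearest profiles of AHSP and of each cluster sum. Genes, lists and rule were chosen with earlier results of these data known. ALAS2, EIF2AK1, NPRL3 and the markers of other cell types lie outside the rule and were chosen after their values were seen. A few genes of the lists are not reported here.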

Additional observations from a re-analysis of the deposited data

How the results depend on the processing

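HBB kept its call and AHSP its direction under all 13 alternatives, at log2 fold changes of 1.84 to 2.63 and 0.82 to 1.07. Other scalings, filters, tests and halved counts gave 2 or 3 calls among the 10 genes, the third being HBZ, and leaving out 1 library gave 1 to 3, with HBB alone called without RUNX1::ERG replicate 1. With a library left out, the group of 1 is assumed to vary like the other.

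With the replicate block 5 of the 10 were called, HBE1, HBG2 and HBZ joining (adjusted p = 0.015, 0.028 and 0.0091), and so were the gamma-globin sum (log2 fold change 0.25), the alpha-type sum (-0.38) and the beta-type sum (0.27). Over all genes the block raised the calls from 737 to 1733, and no filter and the DESeq2 Wald test gave 1500 and 1204. Leaving out a library gave 286 (without RUNX1::ERG replicate 1) to 1336 (without empty vector replicate 2). Same-numbered libraries deviated together (r = 0.37 over 15394 genes), but the labels tie no number to a batch or day, so they were not paired.

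With each library left out, values ran from 0.03 to 0.17 for HBA1 and HBA2 summed, 0.23 to 0.28 for HBG1 and HBG2 summed, -0.47 to -0.30 for the alpha-type sum, 0.20 to 0.32 for the beta-type sum and -0.74 to -0.56 for the log2 ratio of alpha-type to beta-type counts, which was -0.60 per kb. HBA2 changed sign with DESeq2 size factors (-0.0104), no filter (-0.00968) and the DESeq2 Wald test (-0.0104). Over the libraries left out HBA2 ran from -0.11 to 0.12, HBM from -0.27 to 2.06, HBQ1 from -0.48 to 0.071, GATA1 from -0.060 to 0.17 and KLF1 from -0.32 to 0.095, each crossing 0. HBM could not be fitted with at least 10 counts in every library. The alternatives for the 15 genes outside the 10 were added after their values were seen, and 16 values lost and 4 gained a call. Shares of higher calls moved from 76% to 83.3% with library totals, 64.1% without a filter, 62.4% with the block and 54.9% without empty vector replicate 2. The causes were not tested.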
